A study of Mus musculus with 16 samples.

Results

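Genes that charge transfer RNA, make serine and other amino acids, run the mitochondrial folate cycle and carry amino acids into cells were followed in the kidneys of mouse pups that lack Aqp11. The set has 41 genes, with 20 subunits or enzymes of the cytosolic aminoacyl-tRNA synthetases, 5 folate enzymes, 3 serine enzymes, 5 other enzymes of amino acid synthesis, 7 transporters and the translation repressor Eif4ebp1. The genes were chosen by name with the knockout and wild-type levels of the same arrays known, so every difference between the genotypes given here for the 41 is a description, without a test. The array annotation named probe sets for 39 of them among 18194 named genes. Dars and Pycr1 are unnamed here, and Mars was found under its current symbol Mars1.

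Aminoacyl-tRNA synthetases join each amino acid to its transfer RNA and so load the ribosome. Phgdh, Psat1 and Psph make serine from an intermediate of glycolysis, and serine hydroxymethyltransferases pass its side-chain carbon to folate, which the mitochondrial enzymes Mthfd2, Mthfd1l and Aldh1l2 process. Many of these genes, with Asns and several amino acid transporters, are known targets of ATF4, a transcription factor whose translation rises when kinases phosphorylate eIF2α in cells short of amino acids or with stressed endoplasmic reticulum. Aquaporin-11, the product of Aqp11, is a channel protein of the endoplasmic reticulum that proximal tubule cells of the kidney hold.

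The 7 wild-type (Aqp11+/+) and 9 knockout (Aqp11-/-) animals were littermates of heterozygous crosses, aged 7 days, from a line made in 129/SvEvBrd and crossed 10 or 11 times to C57/BL6 (the sample labels give C57BL/6J). The deletion was inherited, so kidney cells and cells arriving from elsewhere all lacked the gene. Wild type had 3 males and 4 females and knockout 5 males and 4 females. RNA of each animal's kidney was hybridised to 1 Affymetrix Mouse Genome 430 2.0 array. Animals are named here by genotype and the number on their label, such as wild type 2-1. The deposited signal differed 2.12-fold between arrays in its trimmed mean and was quantile normalised. Levels are log2 of that signal with a floor at 2.78, and a difference is knockout minus wild type on that scale. Levels of different genes are not compared, since each probe set binds with its own efficiency.

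Aqp11 followed the labels. Its level was 7.87 ± 0.16 (SD, n = 7) in wild-type kidneys and 2.95 ± 0.33 (SD, n = 9) in knockout, with 7 knockout arrays at the floor. As a check of the tissue, 10 genes typical of proximal tubule had a mean level of 10.89 to 11.10 over the wild-type arrays and 9.59 to 10.41 over the knockout arrays, and 9 of the 10 were lower in knockout. Lower means were not particular to that tubule. Loop and distal tubule genes had 9.85 to 10.09 in wild type and 9.19 to 9.70 in knockout, with 2 of 6 tested called lower. Among these Egf differed by -1.91, whereas 2 of the 6 differences were above 0. Podocyte and endothelium genes had 9.01 to 9.23 and 8.81 to 8.99, with 3 of 8 called lower. Of 6 collecting duct genes 1 was called higher and 2 lower, and of 6 stroma genes 3 were called higher and 0 lower. All 10 macrophage genes were higher in knockout, with a mean level of 6.80 to 7.59 in wild type and 8.39 to 9.13 in knockout. Within wild type, animals 2-1 and 2-2 had the highest macrophage levels, 7.59 and 7.58, and the others lay from 6.80 to 7.07. In whole kidney, fewer cells of a type and less RNA per cell cannot be told apart, and the part of these cell types in the levels of the 39 genes was not tested.

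Start regions of 6 genes that were higher in the knockout are printed first, because each holds the core of the composite element that ATF4 binds with C/EBP proteins. The core was searched as TGATGNAA on both strands, in windows of 250 bases before and 50 bases after the start of the gene. Sequences and starts are those of RefSeq on GRCm38.p6. Each sequence below runs 5′ to 3′ along the gene from 120 bases before the start to 20 bases after it, and capitals mark the core, which reads TTNCATCA when it lies on the opposite strand.
Asns: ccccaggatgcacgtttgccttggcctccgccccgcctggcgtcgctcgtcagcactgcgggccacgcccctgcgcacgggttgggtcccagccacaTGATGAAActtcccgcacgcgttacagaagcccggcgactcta
Slc1a4: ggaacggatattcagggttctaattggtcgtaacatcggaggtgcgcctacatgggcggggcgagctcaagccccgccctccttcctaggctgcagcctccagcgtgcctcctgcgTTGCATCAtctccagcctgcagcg
Aars: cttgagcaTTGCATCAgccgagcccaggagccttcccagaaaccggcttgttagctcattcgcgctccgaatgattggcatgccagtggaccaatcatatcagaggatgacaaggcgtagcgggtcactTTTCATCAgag
Gars: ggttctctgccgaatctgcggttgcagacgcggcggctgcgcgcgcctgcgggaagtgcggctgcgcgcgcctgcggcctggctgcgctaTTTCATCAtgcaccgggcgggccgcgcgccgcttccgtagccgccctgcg
Tars: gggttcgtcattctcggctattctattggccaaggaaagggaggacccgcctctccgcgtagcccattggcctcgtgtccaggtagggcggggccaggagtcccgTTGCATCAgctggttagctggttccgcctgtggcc
Iars: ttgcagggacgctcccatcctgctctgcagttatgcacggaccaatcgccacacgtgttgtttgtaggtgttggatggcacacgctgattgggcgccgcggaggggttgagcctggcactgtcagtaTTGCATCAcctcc

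The regions are chr6:7693190-7693329 on the minus strand for Asns, chr11:20332694-20332833 on the minus strand for Slc1a4 and chr8:111033722-111033861 on the plus strand for Aars. Those of the other synthetases are chr6:55037881-55038020 on the plus strand for Gars, chr15:11399639-11399778 on the minus strand for Tars and chr13:49682010-49682149 on the plus strand for Iars. Aars holds a pair of cores, at -112 and 10 from the start, both on the opposite strand. In Asns the core lies at -23 on the strand of the gene. In Gars it lies at -30, in Tars at -15, in Slc1a4 at -4 and in Iars at 8, in each case on the opposite strand.

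A window was at hand for 28 of the 41 genes, and 8 of these (28.6%) held the core. Over all 32851 windows of the table the share was 3.97%, and counted by gene it was 4.51% of 27025 genes. Nothing is read from the comparison, since the set was chosen by name and many of its genes are known ATF4 targets. The other 2 genes with a core were Yars, at 4 on the strand of the gene, and Pycr1, at -103. Yars is one of the synthetases whose level did not pass the threshold between the genotypes (difference 0.02, SE 0.09), and Pycr1, the last enzyme of proline synthesis, is unnamed on the array. Of the 16 genes with a window that were higher in the knockout, 6 held the core.

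The E-box CACGTG, which MYC and TFE proteins bind, was in 5 of 28 genes (17.9%), namely Aars, Aldh18a1, Farsb, Iars and Tars. It was in 7.15% of all windows and 8.09% of genes. No E-box overlapped a core in these genes. The endoplasmic reticulum stress element was in 0 of 28 genes and 0.119% of all windows. A match is a description of letters near a start and was not tested as a binding site. No window was at hand for Aldh1l2, Cars, Cth, Eif4ebp1, Hars, Lars, Nars, Rars, Slc1a5, Slc7a3, Slc7a5, Vars and Wars.

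**Figure D1:**
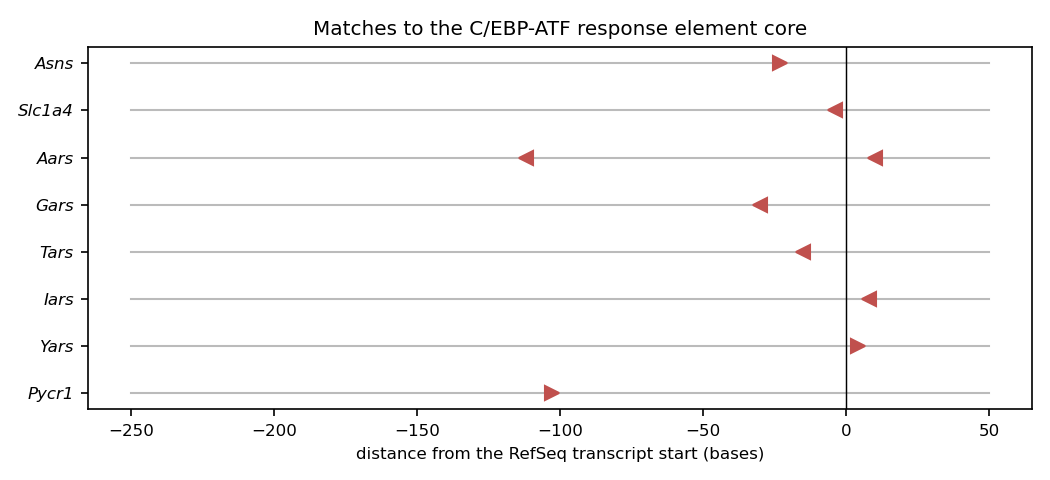
Position of each TGATGNAA core relative to the gene start (x axis, bases) in the 8 genes of the set that hold one, with 1 row per gene and the strand shown by the marker. Cores lie between -112 and 10, and Aars is the gene with a pair of them.

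All 39 named genes passed the filter on dim signals. For 37 this was on all 16 arrays, whereas Bcat1 passed on 10 arrays (1 wild type, 9 knockout) and Slc7a3 on 11 (2 wild type, 9 knockout), so the arrays where these genes were high brought them in. With limma and a Benjamini-Hochberg threshold of 0.05 over 12500 genes, 26 of the 39 were called higher in knockout, 1 lower and 12 not called. Of all genes tested, 9.37% were higher and 8.35% lower by the same call, and nothing is read from the comparison, since the levels were known when the set was chosen. The median difference was 0.38 over the 39 genes and 0.00314 over all genes tested, and 37 of the 39 differences were above 0. The arrays of the genotypes did not overlap for 9 of the 39 genes, each higher in knockout, against 2.91% of all genes higher and 2.43% lower without overlap. Again nothing is read from these shares. With the signals as deposited, without normalisation between arrays, 6 genes were called higher (Aldh1l2, Mthfd2, Asns, Bcat1, Slc7a3 and Slc7a5) and 0 lower, when limma called 2.27% of all genes higher.

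Genes with a difference of at least 2-fold were Aldh1l2 and Mthfd2 among the folate enzymes, Asns, and Bcat1 and Slc7a3, which passed the filter through the knockout arrays. No synthetase on the array exceeded 1.37-fold. By role, the median difference was 0.26 for 19 synthetases, 0.62 for 5 folate enzymes, 0.26 for 3 serine enzymes, 1.12 for 4 other enzymes of amino acid synthesis and 0.51 for 7 transporters. Differences between the roles were not tested.

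**Figure D2:**
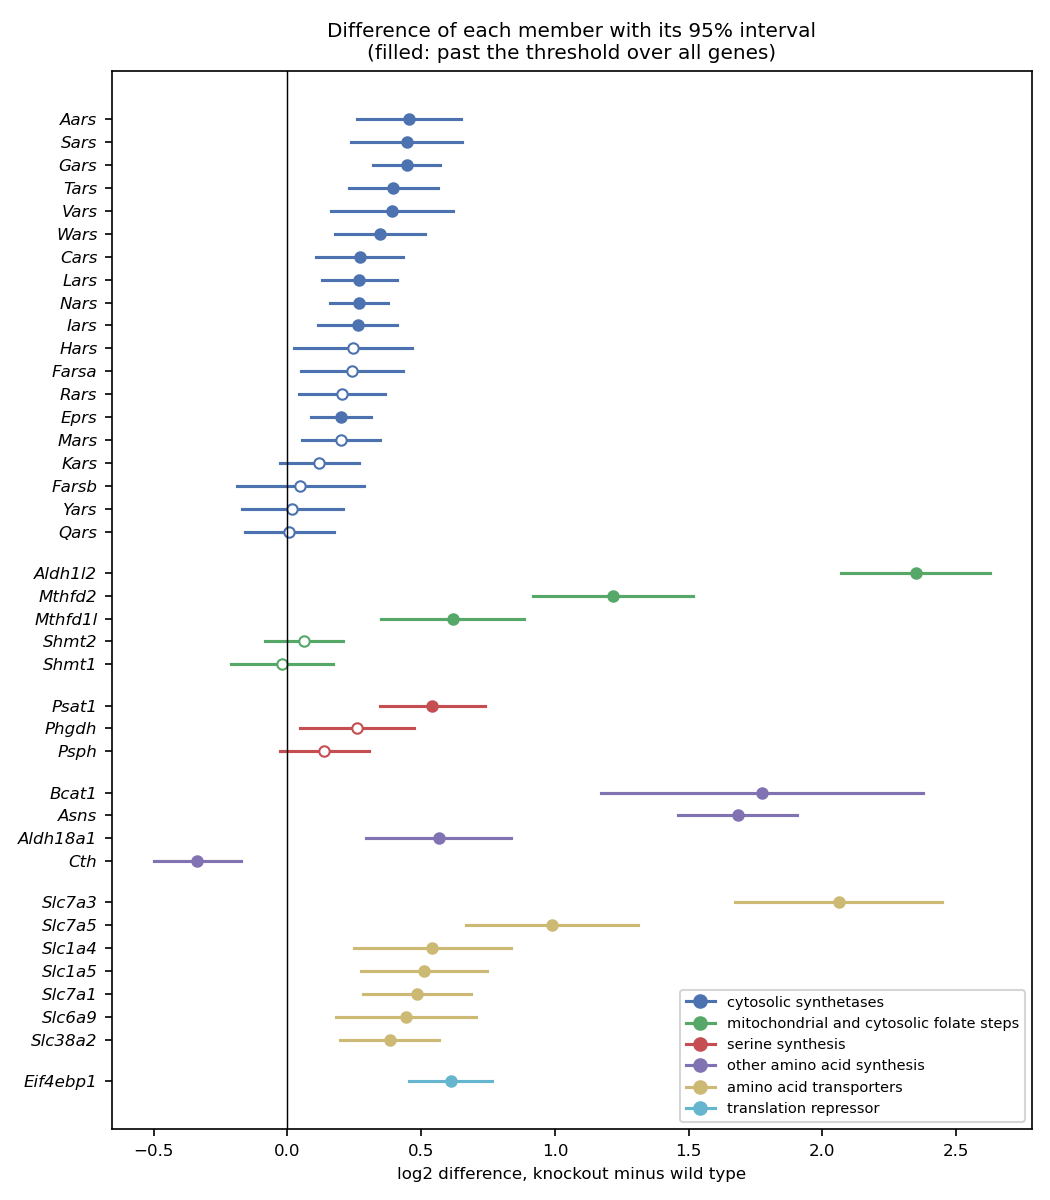
Difference between knockout and wild type (log2, x axis) of each of the 39 genes, grouped by role, with its 95% interval from limma. The synthetases lie between 0.01 and 0.45, and Aldh1l2, Slc7a3, Bcat1, Asns and Mthfd2 lie beyond 1.

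Among the folate enzymes of the set, those of the mitochondrion that act after serine's carbon has entered the folate pool were higher. Aldh1l2, which oxidises mitochondrial 10-formyl-tetrahydrofolate and yields NADPH, ranged from 4.58 to 5.06 in wild type (median 4.77) and from 6.83 to 7.74 in knockout (median 7.11). The difference was 2.35 (SE 0.13), or 5.10-fold, and every knockout array lay above every wild-type array. Knockout 1-2 had the highest level.

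Mthfd2, the mitochondrial methylenetetrahydrofolate dehydrogenase and cyclohydrolase, went from 5.95 to 6.99 in wild type (median 6.24) to between 7.14 and 7.88 in knockout (median 7.61). It differed by 1.22 (SE 0.14), or 2.32-fold, again without overlap. Mthfd1l, which releases formate for export to the cytosol, lay between 6.01 and 6.95 in wild type (median 6.44) and between 6.60 and 7.34 in knockout (median 7.10). Its difference of 0.62 (SE 0.13) was smaller and 6 of 9 knockout arrays were above the highest wild-type array.

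The enzymes that move serine's carbon onto folate did not pass the threshold. Shmt2, the mitochondrial serine hydroxymethyltransferase, had a level of 8.21 to 8.57 in wild type and 8.33 to 8.64 in knockout, a difference of 0.06 (SE 0.07). Shmt1, its cytosolic counterpart, had 8.22 to 8.68 and 8.16 to 8.75, a difference of -0.02 (SE 0.09). For both, the groups overlapped almost throughout.

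Serine synthesis was uneven along its steps. Psat1, the transaminase of the middle step, ranged from 7.85 to 8.37 in wild type (median 8.05) and from 8.39 to 9.04 in knockout (median 8.62). The difference was 0.54 (SE 0.09), or 1.46-fold, without overlap, although the lowest knockout array stood only just above the highest wild-type array. Phgdh, which opens the pathway, differed by 0.26 (SE 0.10) with 3 knockout arrays above the wild-type range, and did not pass. Psph, the phosphatase that ends it, differed by 0.14 (SE 0.08) and did not pass either.

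Asns, which makes asparagine from aspartate and glutamine, was higher in all knockout animals. Its level was 6.54 to 7.09 in wild type (median 6.89) and 8.16 to 8.82 in knockout (median 8.57). That is a difference of 1.68 (SE 0.11), or 3.21-fold, and the gap between the groups was wider than the range within either. The other probe set of Asns above the dim-signal filter gave 1.93, also without overlap.

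Bcat1, the cytosolic aminotransferase of leucine, isoleucine and valine, was dim in most wild-type kidneys. It ranged from 2.78 to 5.37 in wild type (median 3.75) and from 5.04 to 6.20 in knockout (median 5.75), a difference of 1.77 (SE 0.29). Wild type 5-1 was at the floor, which understates the change, and wild type 2-1, at 5.37, lay inside the knockout range, so 7 of 9 knockout arrays were above all wild type. The wild-type SD of 0.84 was the largest among the 39 genes.

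Aldh18a1, which makes the precursor of proline and ornithine from glutamate, had a level of 7.72 to 8.40 in wild type (median 8.06) and 8.10 to 9.12 in knockout (median 8.54). The difference was 0.56 (SE 0.13), and 6 knockout arrays were above the wild-type range. Cth, which cleaves cystathionine to cysteine and is abundant in proximal tubule, went the other way. It ranged from 10.28 to 10.69 in wild type (median 10.47) and from 9.88 to 10.53 in knockout (median 10.16), and fell by 0.34 (difference -0.34, SE 0.08). For Cth 8 of 9 knockout arrays were below the lowest wild-type array. It was the only gene of the 39 called lower, and 9 of the 10 proximal tubule genes were lower in the same animals. The part of that tubule in the level of Cth was not tested.

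**Figure D3:**
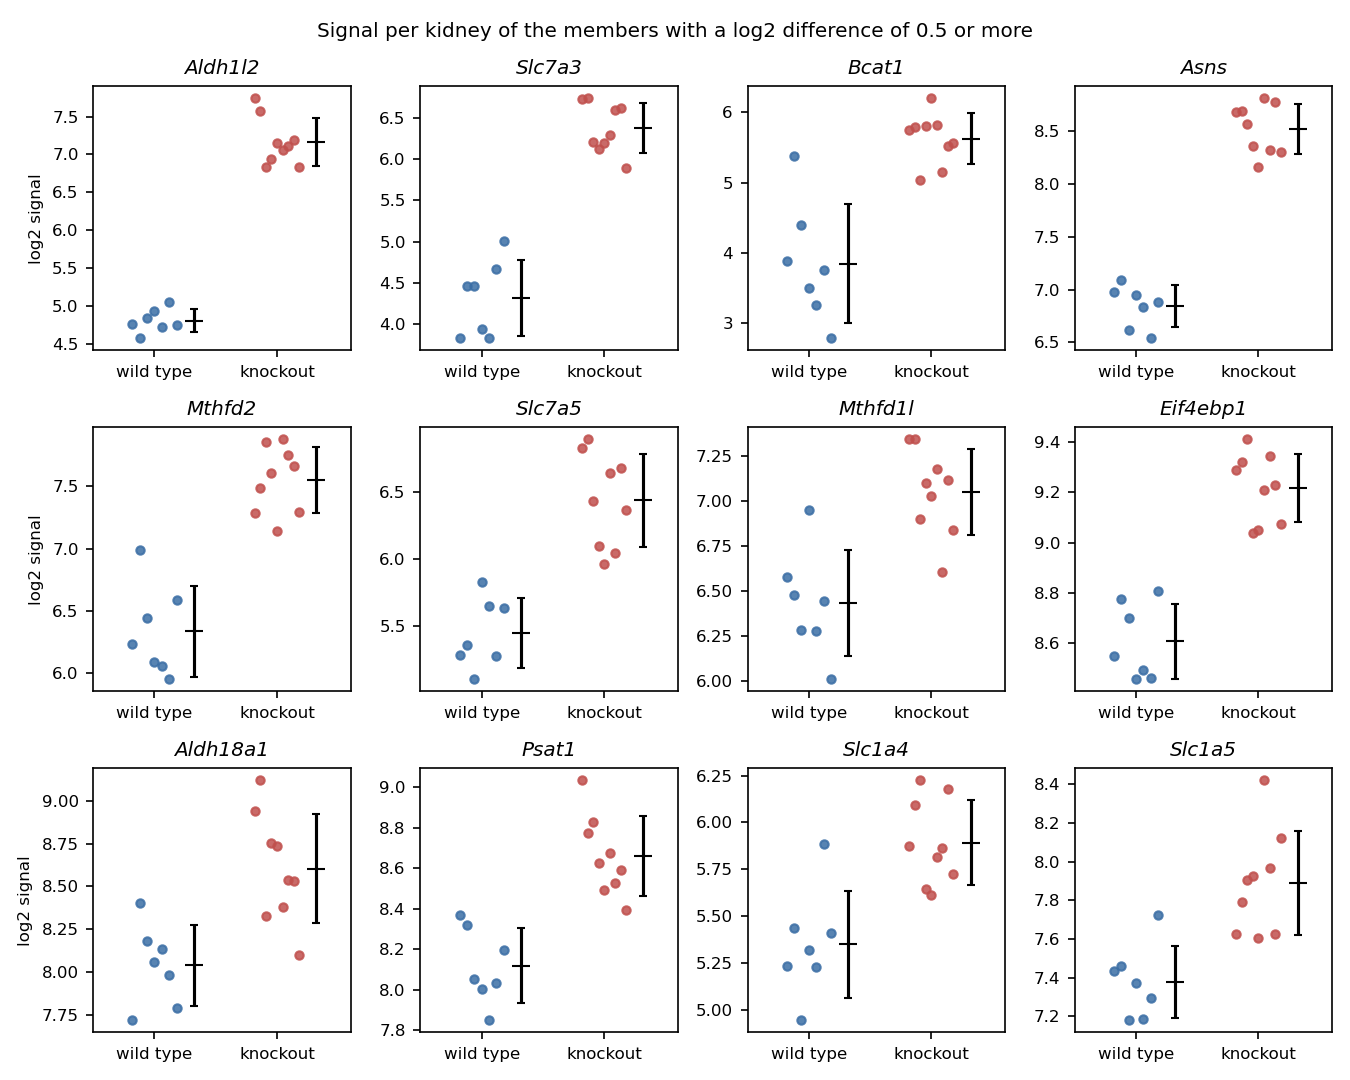
Level (log2 signal, y axis) on each array of the genes that differed by at least 0.5 on the log2 scale, with points for the 7 wild-type and 9 knockout animals and a bar at each group's mean. Groups are apart for Aldh1l2, Slc7a3, Asns, Mthfd2, Slc7a5, Eif4ebp1 and Psat1, whereas Bcat1, Mthfd1l, Aldh18a1, Slc1a4 and Slc1a5 overlap.

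All 7 transporters were called higher in the knockout, beside 9.37% of all genes tested, and nothing is read from the comparison. Slc7a3, a carrier of arginine and lysine whose gene is on the X chromosome, ranged from 3.83 to 5.01 in wild type (median 4.46) and from 5.90 to 6.74 in knockout (median 6.29). The difference was 2.06 (SE 0.19), or 4.17-fold, without overlap. The related Slc7a1, which most cells use for arginine and lysine, differed by 0.48 (SE 0.10), with 8 of 9 knockout arrays above the wild-type range.

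Slc7a5, the light chain of the LAT1 exchanger for leucine and other large neutral amino acids, had 5.10 to 5.83 in wild type (median 5.35) and 5.96 to 6.89 in knockout (median 6.43). It differed by 0.99 (SE 0.15), or 1.99-fold, without overlap. Its partner chain Slc3a2, which is not in the set, had 10.75 ± 0.20 (SD, n = 7) in wild-type kidneys and 10.49 ± 0.25 (SD, n = 9) in knockout. That difference of -0.26 did not pass (limma adjusted p = 0.0938), so the chains of the exchanger had differences of opposite sign.

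Carriers of small neutral amino acids had smaller differences and overlapping groups. Slc1a4, which exchanges alanine, serine and cysteine, ranged from 4.95 to 5.88 (median 5.32) in wild-type kidneys and from 5.62 to 6.23 (median 5.86) in knockout, a difference of 0.54 (SE 0.14) with 3 knockout arrays above the wild-type range. Slc1a5, the glutamine exchanger ASCT2, ranged from 7.18 to 7.72 (median 7.37) and from 7.61 to 8.42 (median 7.90), a difference of 0.51 (SE 0.11) with 6 arrays above. The glycine carrier Slc6a9 differed by 0.44 (SE 0.13), or 0.34 and not called without wild type 2-1 and 2-2, the animals with high macrophage genes, and Slc38a2, which takes up glutamine and alanine with sodium, by 0.38 (SE 0.09).

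Eif4ebp1, which binds the cap-binding protein eIF4E and holds back translation when it is not phosphorylated, was separated between the genotypes. It ranged from 8.46 to 8.81 in wild type (median 8.55) and from 9.04 to 9.41 in knockout (median 9.23), a difference of 0.61 (SE 0.07). Of its other probe sets above the filter, 1 gave 0.82 without overlap and a dim one, which passed on 8 arrays, gave 0.28 with overlap. The array measures its transcript and not its phosphorylation.

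Of the 19 cytosolic synthetases on the array, 11 were called higher in knockout, none lower and 8 were not called. Over all genes tested 9.37% were called higher and 8.35% lower, and nothing is read from the comparison. Aars (alanine), Sars (serine) and Gars (glycine) had the largest differences, each 0.45, with SE of 0.09, 0.10 and 0.06. Gars lay between 9.06 and 9.47 in wild type and between 9.59 and 9.84 in knockout, without overlap. Nars (asparagine) was the other synthetase without overlap, from 10.23 to 10.44 in wild-type kidneys and from 10.47 to 10.76 in knockout, although its difference was only 0.27 (SE 0.05). Its second probe set above the filter gave 0.33, also without overlap.

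Tars (threonine, 0.40), Vars (valine, 0.39), Wars (tryptophan, 0.35), Cars (cysteine, 0.27), Lars (leucine, 0.27), Iars (isoleucine, 0.26) and Eprs (glutamate and proline, 0.20) were the others called higher on the log2 scale. Their groups overlapped, with 8 knockout arrays above the wild-type range for Tars and Cars and 4 for Iars. Without wild type 1-1, Cars differed by 0.23 and was not called. Eprs had a further probe set that went the opposite way, by -0.25. The synthetases not called were Hars (histidine, 0.24), Farsa and Farsb (the phenylalanine subunits, 0.24 and 0.05), Rars (arginine, 0.20), Mars (methionine, 0.20), Kars (lysine, 0.12), Yars (tyrosine, 0.02) and Qars (glutamine, 0.01). Yars, Qars and Farsb had no knockout array above the wild-type range. A difference that missed the threshold does not show that the level stayed equal.

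Most of the set was raised in every knockout animal. On each knockout array, 30 to 38 of the 39 genes lay above the wild-type mean, with a median shift of 0.22 in knockout 3-3 to 0.47 in knockout 2-4. On the wild-type arrays 11 to 30 did so, and wild type 2-1 was at 30 and wild type 5-1 at 26. For 26 of the 39 genes every knockout array lay above the wild-type mean. The set was chosen with these levels known and no share over all genes was counted, so nothing is read from these counts. The mean level over the set was at most 8.20 in wild type and at least 8.44 in knockout. Macrophage levels were 7.59 in wild type 2-1, 7.58 in wild type 2-2 and 6.98 in wild type 5-1, with 30, 16 and 26 genes above the mean. Every knockout array had a macrophage level of at least 8.39, so macrophage level and genotype cannot be told apart here. The part of macrophages in these shifts was not tested.

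**Figure D4:**
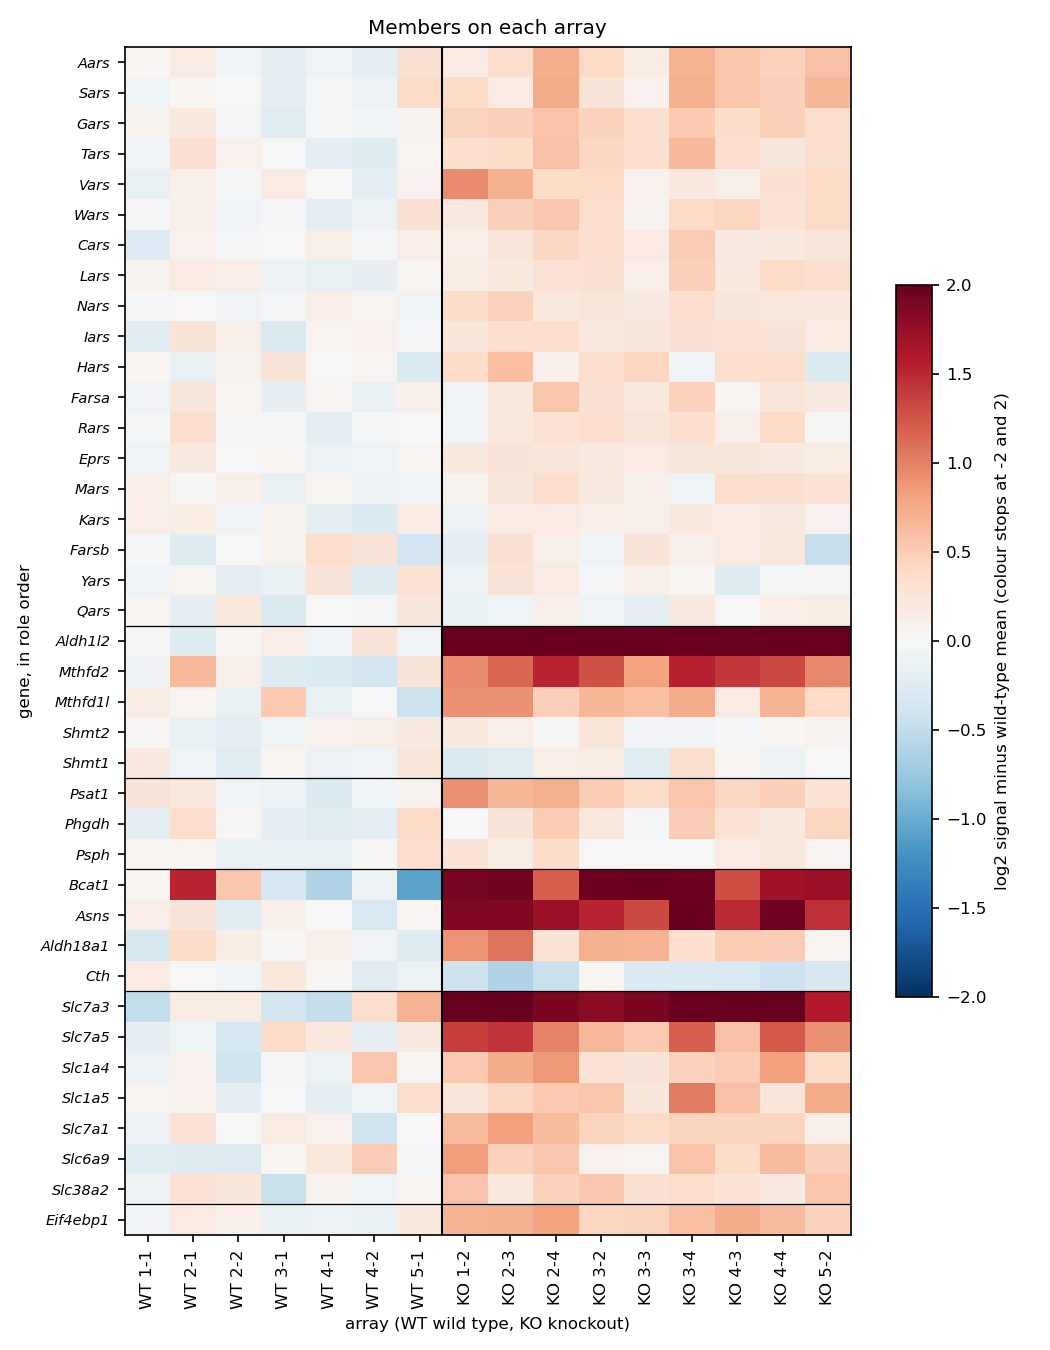
Level of each of the 39 genes (rows, by role) on each of the 16 arrays (columns, by genotype) as the log2 difference from the gene's wild-type mean, with colours that stop at -2 and 2. Knockout columns are raised across most rows, and Cth is the row called lower in knockout.

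Most genes have more than 1 probe set, and these served to check the chosen one. The 39 genes had 88 probe sets, 25 genes had several, and 42 of the 49 others passed the filter on dim signals. Of 25 such probe sets that belonged to genes called, 24 had the sign of the chosen one, and the exception was that of Eprs. Mthfd2 gave 1.06 and Slc7a1 0.64 by another probe set, both without overlap. Some had the same sign but a much smaller size. Slc38a2 gave 0.14 and 0.07 where the chosen one gave 0.38, and Slc1a5 gave 0.14 in place of 0.51. For Aldh18a1 they gave 0.56, 0.48 and 0.16 beside 0.56. The other probe sets of Bcat1, which did not pass the filter, gave 0.61 and 0.23 in place of 1.77. Probe sets that name several genes were left out. Those of Phgdh shared with Gm8096 and Gm6756 gave 0.39 and 0.27, and that of Aars shared with Exosc6 gave 0.15.

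Sex was a comparison that had no part in choosing the genes. With genotype in the limma fit, 6 of 12500 genes differed between males and females (0.048%), namely Xist, Kdm5d, Uty, Eif2s3y, Eif2s3x and Kdm6a, and 0 of the 39 did so. At an unadjusted p under 0.05 there were 389 genes (3.11%) and 2 of the 39. Slc7a3 had the smallest p of the set, with males lower than females by 0.51 (male minus female -0.51, SE 0.15, limma adjusted p = 0.999). Whether the effect of the knockout depended on sex was tested as an interaction in limma. It was called for 0 of 12500 genes (0%) and, at an unadjusted p under 0.05, for 1354 genes (10.8%), 2 of them in the set. The smallest p of the set belonged to Phgdh, whose difference was larger in males by 0.47 (SE 0.18, limma adjusted p = 0.455).

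Covariation among the knockout animals was the other comparison that the choice did not use. Asns was set against each of the other 38 genes over the 9 knockout arrays, with exact permutation of the arrays and adjustment over all 12499 other genes. The correlation was above 0 for 34 of the 38 and above 0.5 for 11, with a median r of 0.32, where the median over all genes was -0.01 and 7.25% were above 0.5. None passed the threshold by the exact permutation test (0 of 12499 genes). At an unadjusted p under 0.05 there were 3.74% of genes and 3 of the 38. Over 9 arrays a single gene could pass only if its arrays stood in the exact order of Asns, or in the reverse. Nothing is therefore read from the 0. With the signals as deposited, which leave the brightness of an array in every gene, 34 of the 38 passed. The share of all genes that passed with those signals was not counted, so nothing is read from the 34.

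Slc7a5 followed Asns most closely among the 38, with r = 0.88 (exact permutation p = 0.00376, adjusted p = 0.99989) and rho = 0.80 (exact permutation p = 0.0138). Without knockouts 3-3 and 5-2, the arrays farthest from the median of Asns, r was 0.89. Gars came next with r = 0.77 (exact permutation p = 0.0180) and rho = 0.80 (exact permutation p = 0.0138), and r fell to 0.53 without those arrays. Slc6a9 had r = 0.76 (exact permutation p = 0.0147) and rho = 0.70 (exact permutation p = 0.0433), and 0.73 without them. Slc1a4 had r = 0.65 (exact permutation p = 0.0658) and rho = 0.58 (exact permutation p = 0.108), and 0.43 without them. The order of these genes by r rests on 9 animals.

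Genes at the low end were Cth, with r = -0.49 (exact permutation p = 0.177) and rho = -0.38 (exact permutation p = 0.312), and Slc38a2, with r = -0.26 (exact permutation p = 0.486) and rho = -0.28 (exact permutation p = 0.463). Without the same arrays r was -0.57 for Cth and -0.29 for Slc38a2. All adjusted p values for the genes named here were 0.99989. Over the 7 wild-type animals, 27 of 38 correlations were above 0 with a median of 0.33, against 0.08 over all genes, and 0 passed. With 7 arrays the permutation p of a single gene cannot get small enough to pass over all genes. Nothing is therefore read from that 0. In wild type Slc7a5 had r = 0.42, Slc6a9 -0.54 and Aldh1l2 -0.74 (exact permutation p = 0.344, 0.196 and 0.0544). The order of the genes was thus not that of the knockout. The difference between the genotypes in these correlations was not tested.

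Related genes outside the set were listed by function, with earlier results of these arrays known, so their limma values describe single genes and do not support the lists. Of 108 tested, 37 were called, 25 higher and 12 lower, where 9.37% of all genes were called higher and 8.35% lower. With the signals as deposited 10 were called. Of 19 targets and partners of eIF2α and ATF4, 11 were higher and 1 lower, with a median difference of 0.45. Atf4 itself rose from 9.91 ± 0.09 (SD, n = 7) to 10.35 ± 0.11 (SD, n = 9), a difference of 0.45 without overlap (limma adjusted p = 1.08e-05). Its downstream factor Ddit3 (CHOP) rose from 6.66 ± 0.15 to 8.14 ± 0.27 (limma adjusted p = 5.86e-09). Trib3, a pseudokinase that ATF4 and CHOP induce, went from 3.92 ± 0.71, with 1 wild-type array at the floor, to 6.65 ± 0.25. It passed the filter on 2 wild-type and 9 knockout arrays, and so through the group where it was high.

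Atf3 rose by 2.34 (limma adjusted p = 1.85e-09) over the wild-type level. The glutathione-cleaving enzyme Chac1 differed by 2.03, and it passed the filter on 1 wild-type and 9 knockout arrays, again through the group where it was high. Vldlr was the gene of this list that fell (-0.28, limma adjusted p = 0.00509). Among the kinases that act on eIF2α, Eif2ak2 (PKR) rose by 0.29 (limma adjusted p = 0.0331). Eif2ak3 (PERK) differed by 0.20 (limma adjusted p = 0.24), and Eif2ak4 (GCN2) and Eif2ak1 by 0.09 and 0.02, and these 3 did not pass. Transcript levels do not give the activity of a kinase. Slc7a11, the cystine exchanger, was too dim to test, at 3.78 ± 0.42 (SD, n = 7) in wild-type kidneys and 4.23 ± 0.42 (SD, n = 9) in knockout.

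The listed mitochondrial synthetases, which have genes of their own and serve the organelle's translation, were lower in 1 case and otherwise did not pass. Of 15 tested, 0 rose by limma and 1 fell, a share of falls near that of all genes (8.35%). Their median was -0.04, beside 0.26 for the 19 cytosolic synthetases, and the lists were not tested against each other. The one that fell was Nars2 (-0.35, SE 0.09, limma adjusted p = 0.0119), while its cytosolic counterpart Nars differed by 0.27. The next smallest p values were those of Rars2 (-0.18, limma adjusted p = 0.138), Hars2 (-0.18, limma adjusted p = 0.254) and Aars2 (0.27, limma adjusted p = 0.372). Of the scaffold proteins that hold cytosolic synthetases in a complex, Aimp1 rose by 0.22 (limma adjusted p = 0.0389), and Aimp2 (0.17) and Eef1e1 (0.11) did not pass.

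Folate genes outside the set went down or did not pass. Of 16 tested, 0 rose and 5 fell, beside 9.37% and 8.35% of all genes, with a median of -0.13. They were Folr1, the folate receptor of proximal tubule (-0.65, limma adjusted p = 1.5e-05), Pipox, which breaks down sarcosine and pipecolic acid (-0.92, 0.000174), the cytosolic Mthfd1 (-0.38, 0.000622), Aldh1l1 (-0.37, 0.00577) and Dmgdh (-0.81, 0.00596), the second value being the limma adjusted p. Aldh1l1 and Mthfd1 are the cytosolic counterparts of Aldh1l2 and Mthfd1l, which had differences of 2.35 and 0.62. Mitochondrial genes did not all rise. Dmgdh, which fell, is one of them. Mthfd2l, a mitochondrial relative of Mthfd2, and the mitochondrial Gcsh differed by -0.17 and -0.12 and did not pass (limma adjusted p = 0.399 and 0.183). Folr1 and Pipox are genes of proximal tubule, 9 of whose 10 marker genes were lower in the same animals, and the part of that tubule in these falls was not tested.

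Among 18 other genes of amino acid metabolism, 2 rose and 3 fell, near the shares of all genes (9.37% and 8.35%). Arg2, the mitochondrial arginase, rose by 0.67 (limma adjusted p = 0.0113) and Oat by 0.27 (limma adjusted p = 0.0494), whereas Asl, which releases arginine, fell (-0.80, limma adjusted p = 2.13e-05). Bckdha and Bckdhb, subunits of the complex that degrades branched-chain amino acids, fell as well (-0.38 and -0.36, limma adjusted p = 0.0138 and 0.00677). Of 12 other transporters 3 rose and 2 fell. Slc7a2, which carries arginine and is known from activated macrophages, rose by 0.72 (limma adjusted p = 0.000398). All 10 macrophage genes were higher in the same animals, and the part of macrophages in the level of Slc7a2 was not tested. Slc7a8, the LAT2 light chain that the proximal tubule places on its basolateral side, fell (-0.74, limma adjusted p = 1.7e-05) while its relative Slc7a5 differed by 0.99. Slc43a2 fell (-0.59, limma adjusted p = 0.00158) and Slc38a1 and Slc7a6 rose by 0.29 and 0.30 (limma adjusted p = 0.0157 and 0.0159).

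Of 25 translation factors tested, 8 rose and 0 fell, beside 9.37% and 8.35% of all genes, with a median of 0.14. Eif2s2, the beta subunit of eIF2, rose by 0.29 (limma adjusted p = 0.000137), Eif6 by 0.43 (limma adjusted p = 0.00127), Eif4a1 by 0.25 (limma adjusted p = 0.00238) and Eif3b by 0.29 (limma adjusted p = 0.00265). The elongation factor Eef1a1, among the most abundant of transcripts, differed by -0.00076 (limma adjusted p = 0.992). Beside these, 0 of 8 genes of cell division passed in limma, with mean levels of 8.01 to 8.35 in wild type and 7.57 to 8.67 in knockout.

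**Figure D5:**
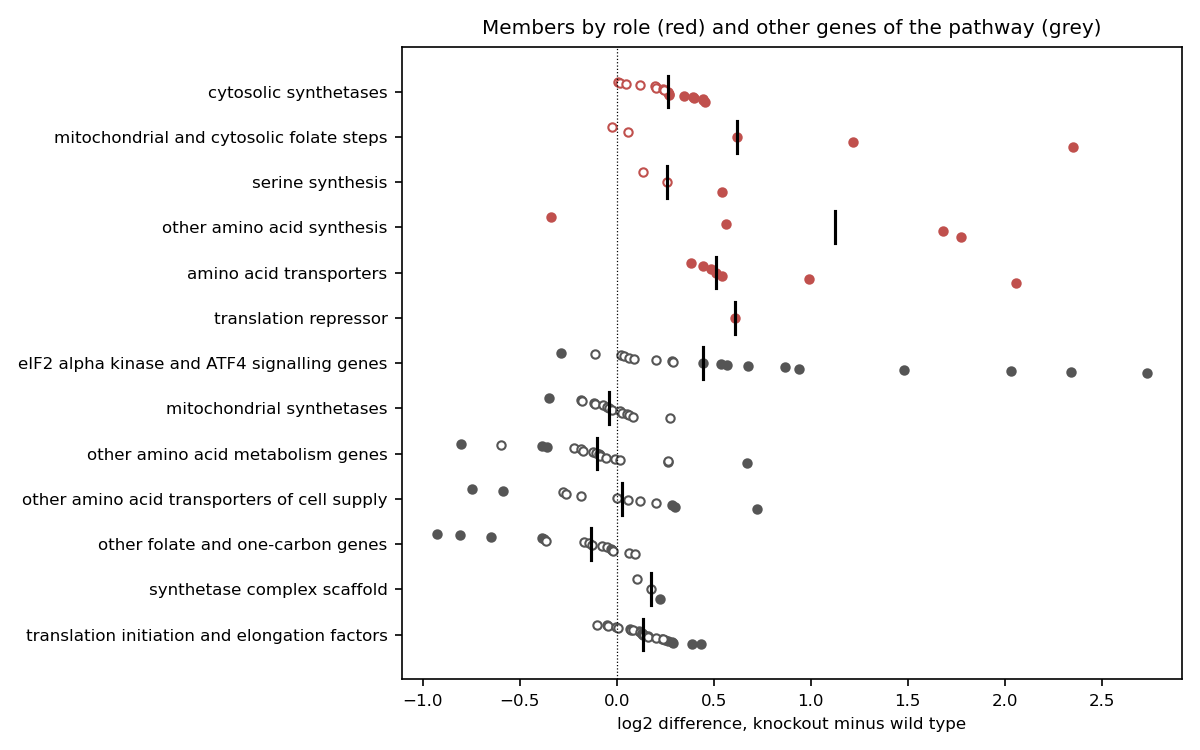
Log2 differences between knockout and wild type of the genes in the set and in each related list, with 1 point per gene and a line at the list's median. The eIF2α and ATF4 list has a median of 0.45, the mitochondrial synthetases -0.04 and the other folate genes -0.13.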

How the data were processed

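The authors deposited signal intensity, not in log units, which GCOS 1.3 produced per the submitters' processing notes. No label states a scaling between arrays, and 2% trimmed means lay 2.12-fold apart. The values were quantile normalised, raised to a floor of 6.89, the 20th percentile over all arrays, and taken to log2. A floor understates changes of dim genes, and quantile normalisation hides a change in total RNA. The platform annotation lists 35890 of 45101 probe sets, of which 34958 name 1 gene and 932 several. No label names the genome build of the array. For each gene the brightest probe set naming 1 gene was taken. It entered the test where 7 or more of the 16 arrays exceeded their own 40th percentile, giving 12500 genes.

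The genotypes were compared by lmFit and trended eBayes of limma 3.58.1 (R 4.3.3) and Benjamini-Hochberg adjustment at 0.05. Sex entered as a further term and as an interaction. Correlations with Asns used exact permutation. The limma step was tested on simulated data. Promoter letters were searched in Python 3.11.15. The number of arrays limits the precision, and p values measure the spread between animals, 1 array each.

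The 41 genes and the related lists were chosen with earlier results of these data known. Values on each array were given for genes that differed by at least 0.5, and differences, for some with ranges, for the others. From each related list up to 4 genes with the smallest p were named, with Atf4, Ddit3, Trib3, Slc3a2 and Slc7a11. Genes named beyond these were chosen after their values were seen. For sex the gene of the set with the smallest p was named, and for the correlations the 4 highest and 2 lowest. The alternatives were other scalings, floors, filters and ways to combine probe sets, sex or the first number on the label as terms, leaving out single arrays, and each sex by itself. Splits by array brightness and leaving out wild type 2-1 and 2-2 were added after seeing the data.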

Additional observations from a re-analysis of the deposited data

Results flagged for a closer look

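In 78 groups (39 genes in 2 genotypes), 4 held an array whose gap to its nearest neighbour passed Dixon's limit, and chance flags about 1 group in 20. Rars was 9.77 in wild type 2-1, with the next array at 9.44, a gap of 0.66 of the range. In wild type 5-1, Sars was 10.17 with the next at 9.84 (0.58 of the range) and Psph was 8.50 with the next at 8.21 (0.61 of the range). Kars was 9.13 in knockout 1-2, with the next array at 9.34 (0.65 of the range). Of these genes Sars was called higher in the knockout and the other 3 were not called.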

How the results depend on the processing

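Of 27 genes called in the set (26 higher, 1 lower), leaving out each array in turn gave 27 to 30, with 26 to 29 higher and 1 to 1 lower. Between 7.98% and 9.57% of all genes were then called higher. Leaving out each array gave 33 to 37 of the related genes and 0 to 0 genes covarying with Asns. With a knockout array left out, the permutation p of a single gene cannot get small enough to pass, so nothing is read from that 0. With the deposited scaling 6 were called, 6 higher and 0 lower (Aldh1l2, Mthfd2, Asns, Bcat1, Slc7a3 and Slc7a5), when limma called 2.27% of all genes higher. That scaling leaves the 2.12-fold brightness of arrays in every gene. It gave 10 related genes in place of 37, and 34 of the other 38 genes covaried with Asns. The share of all genes covarying with Asns was not counted there, so nothing is read from the 34. Females alone gave 13 calls, 13 higher and 0 lower, and 19 related genes, beside 2.88% of all genes called higher. The brighter arrays alone gave 14, 14 higher and 0 lower, and the dimmer ones 17, 17 higher and 0 lower. Of all genes 5.34% were called higher on the brighter arrays and 5.57% on the dimmer ones. These splits have fewer samples. Searching the 250 bases before the start alone left 5 of 8 promoters with the core. Over 36 settings no gene called in the set changed sign, while Farsb, Kars, Qars, Shmt1, Shmt2 and Yars, which were not called, took both signs. Of 1399 values 77 lost their call. Aldh1l2, Mthfd2 and Asns kept theirs in 36 settings and Slc7a3 and Slc7a5 in the 35 that tested them, the filter at the 60th percentile having left them out. Males alone gave 20 calls and lost 9, beside 6.53% of all genes called higher. The mean of all probe sets gave 24 and lost Aldh18a1, Cars, Eprs and Slc38a2, beside 8.46% of all genes called higher. Cars was also lost without wild type 1-1, and Eprs and Lars with median centring. Slc6a9 was lost without both wild type 2-1 and 2-2 (27 higher in all, beside 8.70% of all genes).

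With the first number on the label as a replicate block, 29 were called, 28 higher and 1 lower, Mars and Phgdh being the additions, and 38 related genes. In that setting 11.1% of all genes were called higher. Animals with the same number deviated together only in part (correlations of 0.04, 0.13, -0.01, 0.16 and 0.32 for the 5 numbers), so the numbers were not taken as a pairing.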
